A study of Mus musculus with 6 samples.

Results

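The 10 genes described here are Atf4, its stress-response targets Ddit3, Trib3, Chac1 and Asns, and the enzymes Phgdh, Psat1, Psph, Shmt2 and Mthfd2, which make serine and pass its carbon on to glycine and folate. They were taken by gene symbol from the 23282 entries of the count files, each stood on 1 entry, and all 10 passed the filter on low counts. RNA was sequenced from the 3' end in 6 libraries, all labelled as BMOL, a line of bipotential progenitor cells of the mouse liver. In 3 libraries the cells carried a vector control, and in 3 they carried constructs that express the thioredoxin-interacting protein TXNIP, a member of the arrestin family that inhibits thioredoxin and limits the uptake of glucose. The 2 groups are called control libraries and TXNIP libraries below, by their labels only. The sources used here do not give the strain, the promoter, the vector, the time after transfer, whether a group is 1 clone or several, or whether replicates were separate cultures. The p-values therefore measure the spread between these libraries, which may be technical.

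ATF4 is a transcription factor of the bZIP class and the common effector of the integrated stress response. Kinases that sense amino acid shortage, misfolded protein in the endoplasmic reticulum, viral RNA or haem shortage phosphorylate the initiation factor eIF2. Most translation then slows, while the Atf4 messenger is translated more through its upstream reading frames, so the Atf4 RNA level is not a measure of ATF4 protein. ATF4 pairs with C/EBP proteins and induces genes of amino acid uptake, amino acid synthesis and tRNA charging, among them all the enzymes described here. PHGDH, PSAT1 and PSPH convert a glycolytic intermediate to serine in the cytosol. SHMT2 and MTHFD2 then split serine into glycine and a one-carbon unit inside mitochondria.

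ATF4 and a C/EBP partner bind composite sites, so the promoter windows of the members are shown first, to set the sites beside the changes of the genes that carry them. All 10 members matched the RefSeq promoter windows of GRCm38.p6, which run from 250 bases before a start to 50 after it. The core TGATGNAA, on either strand, was found in 3 of the 10 members (Trib3, Chac1 and Asns), and 3.97% of all 32851 windows hold it. A second form, TGNNGCAAT, chosen after these promoters had been read and able to match at the same place as the first, was found in Trib3, Chac1 and Psat1, and 2.12% of all windows hold it. The cyclic AMP element TGACGTCA was in 0 of the 10, against 1.79% of all windows. The windows are written 5' to 3' on the strand of the gene, with matches in capitals, and the match TTGCATCA in Chac1 is the first core read on the other strand. The TGATGNAA match of Trib3 begins 14 bases after the start and lies outside the stretch shown. Phgdh and Shmt2, the members with the largest fall and the second largest rise, are shown for comparison and hold neither form.
Trib3, chr2:152344065-152344113, minus strand: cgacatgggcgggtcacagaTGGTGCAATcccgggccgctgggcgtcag
Chac1, chr2:119350992-119351076, plus strand: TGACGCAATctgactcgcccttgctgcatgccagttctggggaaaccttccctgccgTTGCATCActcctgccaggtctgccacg
Asns, chr6:7693210-7693252, minus strand: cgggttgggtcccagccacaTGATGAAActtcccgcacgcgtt
Psat1, chr19:15925167-15925215, minus strand: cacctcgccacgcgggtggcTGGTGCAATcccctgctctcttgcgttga
Phgdh, chr3:98339970-98340049, minus strand: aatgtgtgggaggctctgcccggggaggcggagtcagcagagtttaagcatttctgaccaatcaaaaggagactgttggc
Shmt2, chr10:127522445-127522524, minus strand: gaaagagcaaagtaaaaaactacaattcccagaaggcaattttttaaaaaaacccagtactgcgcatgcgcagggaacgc

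The libraries held 8725624 to 15119775 reads. Txnip stood at 38.3, 9.63 and 10.8 CPM (counts scaled to the library with TMM factors) in the controls and at 217, 299 and 290 CPM in the TXNIP libraries, a log2 fold change of 3.82 that was 4.71 without control replicate 1. Defining markers of the labelled progenitor type were absent or nearly so in the TXNIP libraries. All 11 leukocyte markers listed rose, with a summed level of 72.6 to 92.3 CPM in the controls and 6320 to 7061 CPM in the TXNIP libraries, and Adgre1 and Itgam were at 0 in the controls. Of 9 tested ductular markers 8 fell and 1, Spp1, rose. Without Spp1 their sum was 2562 to 3681 CPM in the controls and 0.0907 to 1.55 CPM in the TXNIP libraries. Krt7, Epcam and Sox9 were among those at 0 in the TXNIP libraries. Sox9 stood at 62.9 to 93.7 CPM in the controls. Krt7 (2.09 to 2.43 CPM) and Epcam (0.653 to 2.53 CPM, not tested) were already low there. Of 5 tested hepatocyte markers 3 fell and 1, Afp, rose, with sums of 49.6 to 99.4 and 98.7 to 112 CPM. Without Afp the hepatocyte sums were 37.5 to 93.1 CPM in the controls and 0.0967 to 3.27 CPM in the TXNIP libraries, and Cps1 was at 0 in both groups. Every comparison below sets libraries with these marker levels against each other, and the part of cell identity in the results was not tested. Whether the TXNIP libraries came from the labelled line was not tested either, and they may not have. In RNA from whole cultures, fewer cells of a type and less RNA per cell cannot be told apart.

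The comparison asks how the RNA of the ATF4 and serine genes differs between the TXNIP and the control libraries. Of the 10 members, 5 were higher (Atf4, Chac1, Asns, Shmt2 and Mthfd2), 1 was lower (Phgdh) and 4 did not pass (Ddit3, Trib3, Psat1 and Psph) by the quasi-likelihood test of edgeR, adjusted by Benjamini-Hochberg over 12088 genes. Of all tested genes 64.5% changed, 30.6% upward and 33.9% downward, so a count of 6 changed members is near the share of all genes. The groups did not overlap in 7 of the 10 members and in 70.4% of all tested genes. The median log2 fold change of the members was 0.54 and that of all tested genes -0.04. Members had between 69 reads (Chac1, control replicate 1) and 11559 reads (Atf4, control replicate 3) in a library.

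**Figure D1:**
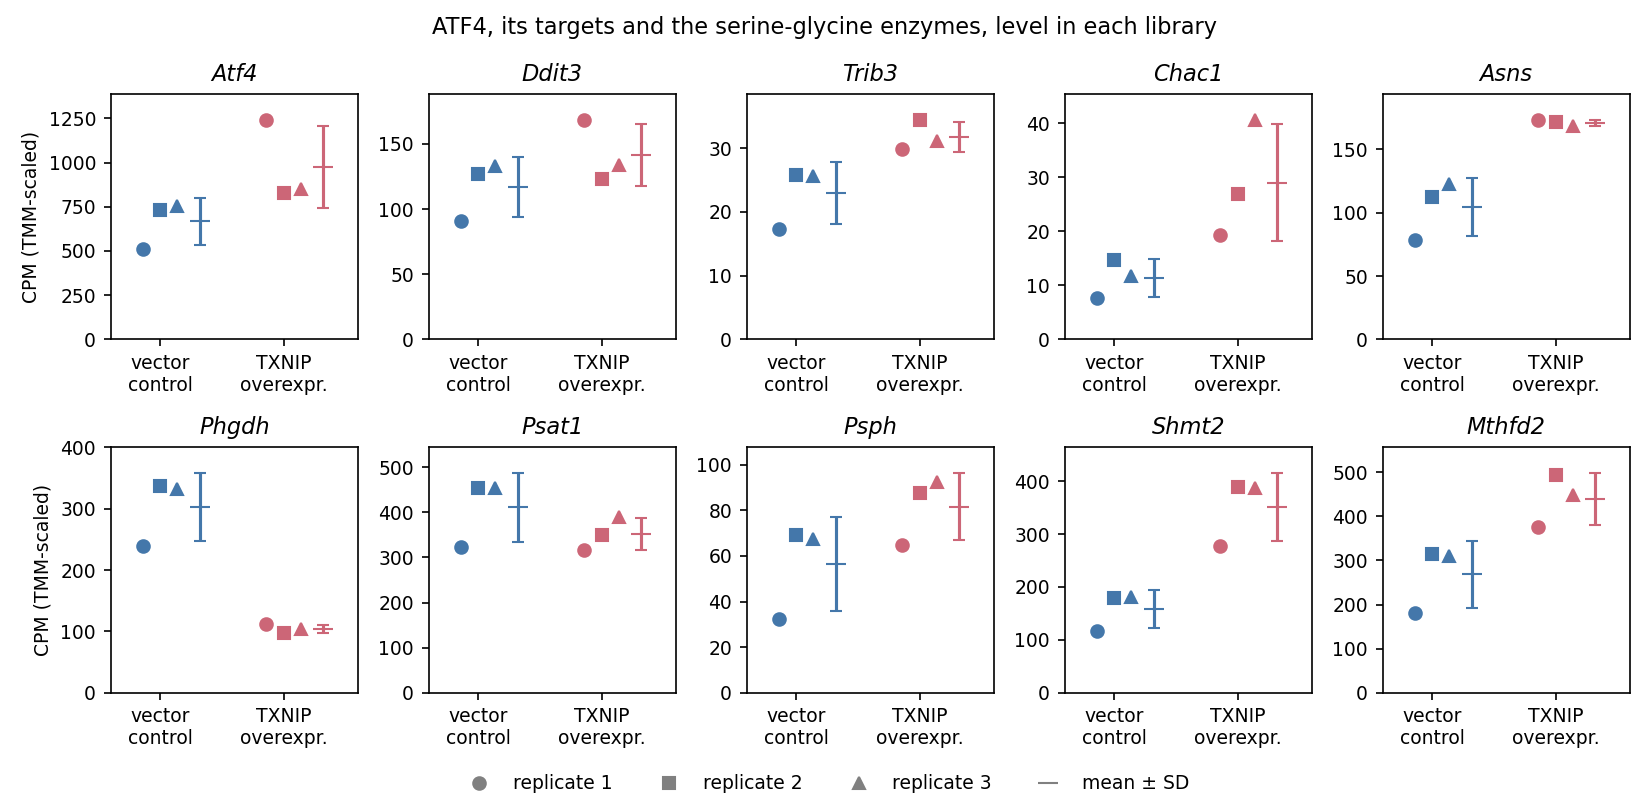
Level of each member in each library, as TMM-scaled CPM on a linear axis from 0, with the mean and SD of 3 libraries per group to the right of the points and a symbol for each replicate number. Phgdh lies between 97.7 and 111 CPM in the TXNIP libraries, below all controls, and control replicate 1 (blue circle) is the lowest control in all 10 panels.

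Atf4, the factor itself (chromosome 15, 80255184 to 80257545), stood at 513, 734 and 755 CPM in the controls and at 1241, 826 and 852 CPM in the TXNIP libraries. The groups did not overlap, but TXNIP replicate 1 stood well above replicates 2 and 3. The mean rose from 667 ± 134 to 973 ± 232 CPM (SD, n = 3), a log2 fold change of 0.54 ± 0.19 (SE, edgeR adjusted p = 0.0229). The call was lost without either first replicate alone: without control replicate 1 the log2 fold change was 0.38 (adjusted p = 0.0728), and without TXNIP replicate 1 it was 0.34 (adjusted p = 0.0849). Without replicate 1 in both groups Atf4 passed again (adjusted p = 0.0227), but with a log2 fold change of 0.17.

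Ddit3 encodes CHOP, a bZIP factor that ATF4 induces and that promotes cell death under lasting stress. It stood at 90.7, 127 and 133 CPM in the controls and at 169, 123 and 134 CPM in the TXNIP libraries (chromosome 10, 127290793 to 127296291). The groups overlapped, and the log2 fold change of 0.27 (95% interval -0.10 to 0.65, edgeR adjusted p = 0.178) did not pass. Without replicate 1 in both groups it was -0.02. The annotated 3' end of Ddit3 shares 68 bases with the 3' end of Mars, the methionyl-tRNA synthetase gene on the other strand. The sources used here do not say whether strand was used in counting, so reads from that stretch cannot be assigned with certainty. Mars itself stood at 116 to 160 CPM in the controls and at 195 to 266 CPM in the TXNIP libraries.

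Trib3 encodes a pseudokinase that binds AKT and feeds back on ATF4 and CHOP (chromosome 2, 152337425 to 152344060). It stood at 17.3, 25.9 and 25.7 CPM in the controls and at 29.8, 34.4 and 31.1 CPM in the TXNIP libraries. All 3 TXNIP libraries lay above all controls, yet the log2 fold change of 0.47 ± 0.20 (SE) missed the threshold (edgeR adjusted p = 0.0533). Its 95% interval, before adjustment over genes, was 0.04 to 0.89. With 1 library left out the log2 fold change ranged from 0.30 to 0.56 and never passed. The lowest value was without control replicate 1 (edgeR adjusted p = 0.144).

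Chac1 encodes an enzyme that degrades glutathione and is among the most responsive ATF4 and CHOP targets (chromosome 2, 119351242 to 119354326). It had the largest rise of the members. It stood at 7.59, 14.7 and 11.8 CPM in the controls and at 19.3, 27.0 and 40.6 CPM in the TXNIP libraries. The groups did not overlap, and the TXNIP libraries spread more widely than the controls. The mean went from 11.4 ± 3.57 to 29.0 ± 10.8 CPM (SD, n = 3), a log2 fold change of 1.34 ± 0.30 (SE, edgeR adjusted p = 0.00206).

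Asns makes asparagine from aspartate and glutamine (chromosome 6, 7675165 to 7693209). It stood at 78.6, 113 and 123 CPM in the controls and at 173, 171 and 168 CPM in the TXNIP libraries. The TXNIP libraries differed from each other by far less than the controls did, and every one lay above every control. The log2 fold change was 0.70 ± 0.16 (SE, edgeR adjusted p = 0.0019), a 1.63-fold rise. Of the 3 members whose promoter windows hold the TGATGNAA core, Chac1 and Asns rose and Trib3 did not pass. Of the members without it, Atf4, Shmt2 and Mthfd2 rose as well, Phgdh fell, and Ddit3, Psat1 and Psph did not pass. A link between the core and the change was not tested.

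Phgdh encodes the first and committed enzyme of serine synthesis, which oxidises 3-phosphoglycerate (chromosome 3, 98313171 to 98339969). It was the only member that fell in the fit of all 6 libraries. It stood at 239, 337 and 333 CPM in the controls and at 111, 97.7 and 104 CPM in the TXNIP libraries. The groups were far apart, and the spread among the TXNIP libraries was small. The mean went from 303 ± 55.2 to 104 ± 6.78 CPM (SD, n = 3), a log2 fold change of -1.54 ± 0.15 (SE, edgeR adjusted p = 1.98e-06), or 2.91-fold lower.

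Neither of the next enzymes of the pathway passed the test. Psat1, the aminotransferase of the second step (chromosome 19, 15905123 to 15925059), stood at 323, 455 and 455 CPM in the controls and at 317, 349 and 390 CPM in the TXNIP libraries. The groups overlapped through control replicate 1, and the log2 fold change of -0.22 (95% interval -0.55 to 0.11) did not pass (edgeR adjusted p = 0.214). Without control replicate 1 it was -0.37 and passed (adjusted p = 0.0178), so the call for Psat1 depends on that library. Psph, the phosphatase that releases serine (chromosome 5, 129765558 to 129787443), stood at 32.4, 69.3 and 67.6 CPM in the controls and at 65.0, 87.7 and 92.4 CPM in the TXNIP libraries. The groups overlapped because TXNIP replicate 1 lay below control replicates 2 and 3. The log2 fold change of 0.53 (95% interval -0.03 to 1.09) did not pass (edgeR adjusted p = 0.091). Without control replicate 1 it was 0.25 (adjusted p = 0.201), and without replicate 1 in both groups it was 0.39 and passed (adjusted p = 0.00292).

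Both mitochondrial members rose. Shmt2, which moves a one-carbon unit from serine to folate and leaves glycine (chromosome 10, 127517123 to 127522444), stood at 116, 179 and 180 CPM in the controls and at 278, 389 and 387 CPM in the TXNIP libraries. The groups did not overlap, and in each group replicate 1 was the lowest. The mean went from 158 ± 36.7 to 351 ± 63.9 CPM (SD, n = 3), a log2 fold change of 1.15 ± 0.19 (SE, edgeR adjusted p = 1.96e-04). The 3' end of Shmt2 shares 32 bases with that of Ndufa4l2 on the other strand, which stood at 7.26 to 13.3 CPM in the controls and 14.7 to 25.7 CPM in the TXNIP libraries, and the part of that overlap in the Shmt2 values was not tested. Mthfd2, the folate dehydrogenase and cyclohydrolase of the following steps (chromosome 6, 83305704 to 83326011), stood at 182, 315 and 310 CPM in the controls and at 376, 493 and 449 CPM in the TXNIP libraries. All TXNIP libraries lay above all controls, with a log2 fold change of 0.71 ± 0.20 (SE, edgeR adjusted p = 0.00806).

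**Figure D2:**
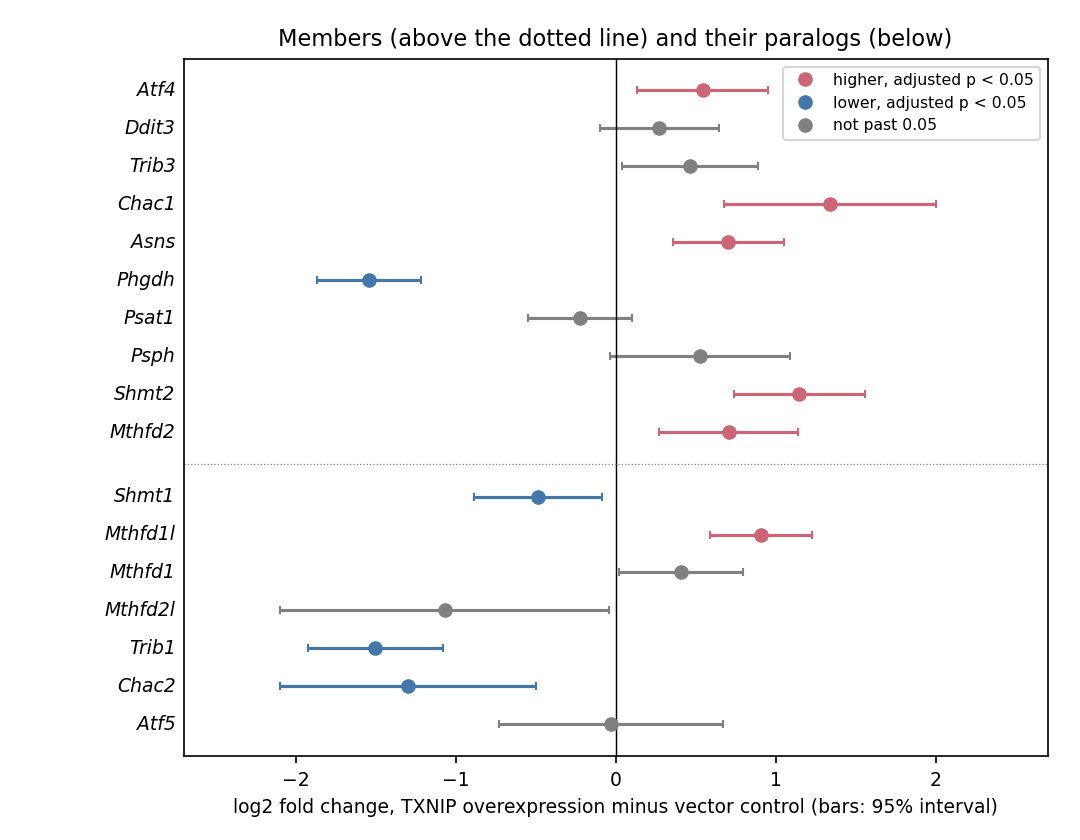
Log2 fold change of each member and of the 7 tested paralogs, TXNIP libraries minus control libraries, from edgeR, with bars for the 95% interval and colour for the adjusted call. Phgdh at -1.54 stands apart from the other members, and Shmt2 at 1.15 lies on the other side of 0 from its cytosolic isozyme Shmt1 at -0.48.

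Close relatives of the members were compared with the same fit. Of the 8 paralogs listed 7 were tested, of which 1 rose, 3 fell and 3 did not pass, with a median log2 fold change of -0.48. As shares, 14.3% rose and 42.9% fell, beside 30.6% and 33.9% of all tested genes. Shmt1, the cytosolic serine hydroxymethyltransferase, went from 41.9 ± 4.14 to 29.9 ± 5.90 CPM (SD, n = 3; log2 fold change -0.48, edgeR adjusted p = 0.0347). The Shmt1 call was lost when 1 library was left out in 4 of 6 cases, namely without control replicate 1 (adjusted p = 0.0594), control replicate 2 (0.114), TXNIP replicate 1 (0.102) or TXNIP replicate 3 (0.0627). Mthfd1l, the mitochondrial formate-releasing enzyme, rose from 123 ± 17.6 to 231 ± 29.7 CPM (edgeR adjusted p = 1.55e-04). Its cytosolic counterpart Mthfd1 had 55.7 ± 12.2 and 74.1 ± 9.32 CPM and did not pass (adjusted p = 0.0618), although it did without TXNIP replicate 1 (0.0293).

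Mthfd2l, the isozyme of Mthfd2 found in many adult tissues, was low, with 3.94 ± 1.11 against 1.87 ± 0.561 CPM (edgeR adjusted p = 0.0646, not past the threshold). Trib1, a pseudokinase that directs the degradation of C/EBP alpha, fell from 65.9 ± 17.2 to 23.2 ± 1.73 CPM (edgeR adjusted p = 2.45e-05). Chac2, the constitutive relative of Chac1, fell from 8.07 ± 2.29 to 3.29 ± 0.947 CPM (adjusted p = 0.00801). When control replicate 3 was left out, Chac2 no longer passed (adjusted p = 0.0603). Atf5, a bZIP factor controlled by eIF2 much as ATF4 is, stood at 26.8, 58.9 and 53.6 CPM in the controls and at 67.1, 33.5 and 37.1 CPM in the TXNIP libraries, and did not pass (adjusted p = 0.943). The first replicate lay below the other two in the controls and above them in the TXNIP libraries, and without replicate 1 in both groups Atf5 fell (log2 fold change -0.68, adjusted p = 2.48e-04).

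Ratios of reads between 2 genes within a library do not depend on any scaling factor, and 8 pairs were compared, chosen after the values had been seen. The ratio of Psat1 to Phgdh was nearly constant among the controls, at 0.43, 0.43 and 0.45 on the log2 scale, and was 1.51, 1.84 and 1.91 in the TXNIP libraries, a 2.49-fold difference. Control replicate 1, whose CPM of both genes was low, lay beside the other controls in this ratio. Not every pair showed this. For Psph to Phgdh it stood at -2.88, against -2.28 and -2.30 in control replicates 2 and 3. For Trib3 to Trib1 it stood at -2.31, against -1.03 and -1.21.

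The ratio of Psph to Phgdh was 4.35-fold higher in the TXNIP libraries and that of Shmt2 to Phgdh 6.43-fold higher. Between isozymes, the Shmt2 to Shmt1 ratio was 1.44, 1.97 and 2.26 on the log2 scale in the controls and 3.58, 3.49 and 3.60 in the TXNIP libraries, 3.17-fold higher. The ratio of Mthfd2 to Mthfd2l was 3.53-fold, that of Mthfd1l to Mthfd1 1.40-fold, that of Trib3 to Trib1 3.92-fold and that of Chac1 to Chac2 6.20-fold higher. In all 8 pairs the 3 TXNIP libraries lay above the 3 controls. The pairs were chosen with these values known, so that count is no test. Among single tested genes, the groups did not overlap in 70.4%. The exact two-sided permutation test gave p = 0.1 for each pair, also after adjustment over the 8, and 0.1 is the smallest value that 3 against 3 libraries allow.

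**Figure D3:**
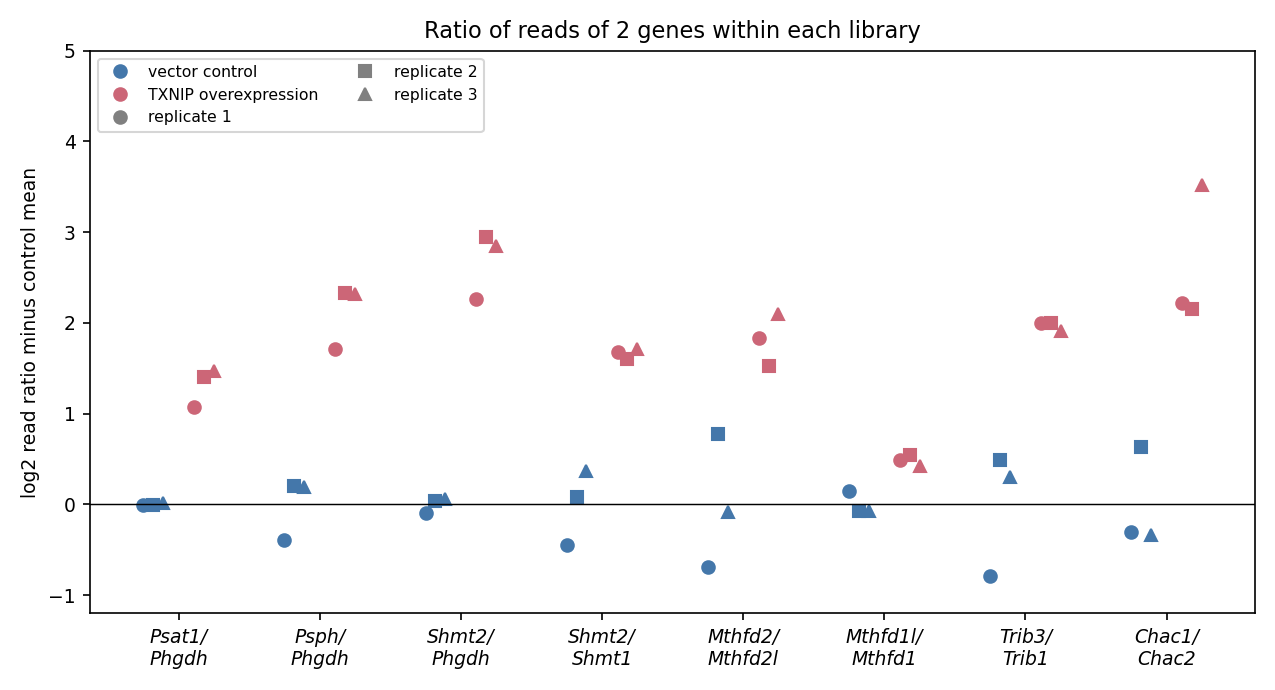
Log2 ratio of the reads of 2 genes within each library, minus the mean of the 3 control libraries, for the 8 pairs, with a symbol for each replicate number. The pairs were chosen after the values had been seen. The controls scatter around 0 and every TXNIP library lies above every control in each pair, from a mean shift of 0.48 for Mthfd1l to Mthfd1 up to 2.69 for Shmt2 to Phgdh.

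Other genes of folate and one-carbon metabolism moved in both directions. Of 25 listed 21 were tested, of which 8 rose, 4 fell and 9 did not pass, with a median log2 fold change of 0.16. Thus 38.1% rose and 19.0% fell, beside 30.6% and 33.9% of all tested genes. Aldh1l2, the mitochondrial enzyme that oxidises formyl-folate and an ATF4 target, rose from 1.25 ± 0.452 to 24.3 ± 4.44 CPM (SD, n = 3; log2 fold change 4.24 ± 0.32 SE, edgeR adjusted p = 1.86e-07). Mtr, the methionine synthase, rose from 21.5 ± 7.10 to 68.3 ± 11.5 CPM. Dld, the dehydrogenase subunit that the glycine cleavage system shares with other complexes, rose from 51.1 ± 3.42 to 136 ± 6.78 CPM. Of the subunits that belong to glycine cleavage alone, Amt had no read in any library, Gldc was at 1.05 ± 0.196 and 1.03 ± 0.703 CPM, and Gcsh was at 104 ± 5.18 and 106 ± 3.89 CPM. Sfxn3, of the family of mitochondrial serine carriers, fell from 61.4 ± 8.54 to 25.6 ± 3.70 CPM, while its relative Sfxn1 rose from 244 ± 3.29 to 306 ± 25.8 CPM. When any 1 library was left out, 1 or 2 folate genes fell in place of 4.

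Amino acid transporters known as ATF4 targets were divided. Of 9 listed 8 were tested, of which 4 rose, 1 fell and 3 did not pass, with a median log2 fold change of 0.37. The shares were 50% up and 12.5% down, beside 30.6% and 33.9% of all tested genes. Slc7a11, the cystine and glutamate exchanger, rose from 8.93 ± 1.11 to 124 ± 16.8 CPM (SD, n = 3; log2 fold change 3.80 ± 0.17 SE, edgeR adjusted p = 1.89e-09). Slc1a5, the glutamine and neutral amino acid carrier, rose from 28.1 ± 4.03 to 253 ± 45.9 CPM. Slc7a1 for cationic amino acids and Slc38a2 for small neutral ones rose less, from 98.2 to 121 and from 316 to 347 CPM in the controls to 203 to 248 and 504 to 661 CPM in the TXNIP libraries. Slc1a4, which carries serine and alanine, was the one that fell, from 23.3 ± 4.62 to 15.3 ± 3.23 CPM (edgeR adjusted p = 0.033). That single fall was lost without control replicate 2 or 3 and without TXNIP replicate 1 or 2, and without control replicate 1 there were 2 falls. Slc3a2 and Slc7a5, the 2 chains of the large neutral amino acid transporter, did not pass.

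Enzymes of other amino acids next to the pathway were mostly lower, with 8 of 12 tested genes lower, 2 higher and 2 not past out of 13 listed, and a median log2 fold change of -0.61. That is 66.7% lower and 16.7% higher, beside 33.9% and 30.6% of all tested genes. Glul, glutamine synthetase, fell from 404 ± 53.0 to 34.9 ± 10.3 CPM (SD, n = 3; log2 fold change -3.53 ± 0.21 SE, edgeR adjusted p = 3.11e-08). The 2 genes of transsulfuration, which uses serine to make cysteine, differed in direction. Cbs, the first step, which condenses serine with homocysteine, stood at 26.6, 3.81 and 5.94 CPM in the controls and had 4 reads in all the TXNIP libraries, all in replicate 2. Its log2 fold change of -6.37 moved to -5.09 without control replicate 1 and to -5.74 without TXNIP replicate 3. Without TXNIP replicate 2 no read was left in that group, and Cbs was at least 64.7-fold lower by the floor of 3 reads. Cth, the second step, rose from 5.25 ± 1.40 to 43.9 ± 8.45 CPM (edgeR adjusted p = 3.51e-07).

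Of the 20 cytosolic aminoacyl-tRNA synthetases, many of which ATF4 induces, 13 rose, 3 fell and 4 did not pass, with a median log2 fold change of 0.68, beside 30.6% of all tested genes higher and a median of -0.04. Hars rose most, from 49.6 ± 6.90 to 158 ± 4.55 CPM (SD, n = 3). Qars went from 79.9 ± 12.8 to 175 ± 9.21 CPM and Nars, the enzyme for asparagine, from 265 ± 19.1 to 528 ± 28.7 CPM. Sars, which charges serine, rose from 343 ± 47.5 to 647 ± 51.3 CPM (edgeR adjusted p = 6.75e-05). The 3 that fell were Kars (329 ± 17.7 to 114 ± 7.57 CPM), Aars (260 ± 31.1 to 152 ± 13.8 CPM) and Farsa (359 ± 49.7 to 281 ± 13.2 CPM). Farsb, which encodes the other subunit of the enzyme for phenylalanine, rose from 148 ± 23.1 to 266 ± 20.4 CPM. Gars and Tars, at 304 ± 45.2 and 287 ± 14.6 and at 343 ± 60.0 and 378 ± 25.7 CPM, did not pass.

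**Figure D4:**
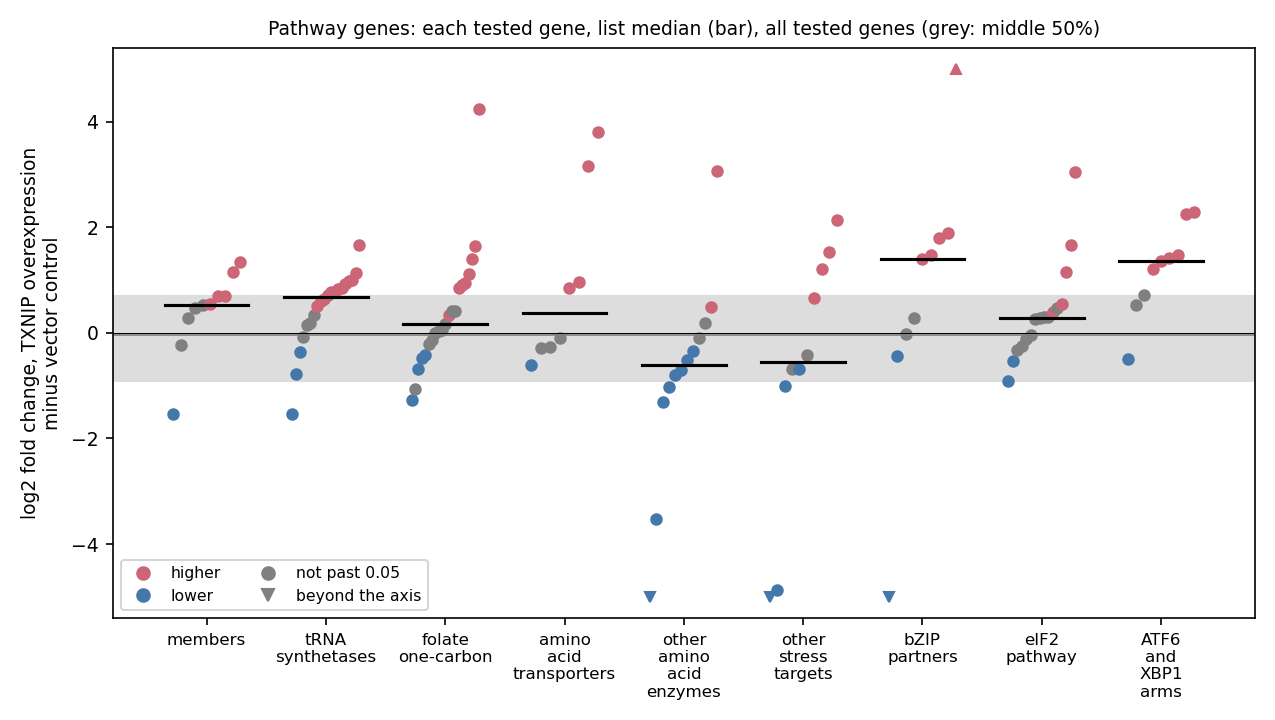
Log2 fold change of every tested gene of each list, TXNIP libraries minus control libraries, with the list median as a black bar, the middle 50% of all 12088 tested genes as a grey band and triangles for genes beyond the axis. The tRNA synthetases have a median of 0.68 and the other amino acid enzymes one of -0.61.

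Other targets of the stress response went both ways. The rise of all 11 leukocyte markers in the TXNIP libraries stands beside these counts. Of 13 listed 10 were tested, of which 4 rose, 4 fell and 2 did not pass, and Fgf21 and Adm2 had no read. So 40% rose and 40% fell, beside 30.6% and 33.9% of all tested genes. Ero1l, an oxidase of the endoplasmic reticulum, rose from 18.9 to 21.4 CPM in the controls to 82.1 to 92.6 CPM (edgeR adjusted p = 6.54e-08), and Xpot, which exports tRNA, from 75.1 ± 24.0 to 174 ± 7.53 CPM. Gdf15, a secreted stress hormone, fell from 127 ± 36.2 CPM (SD, n = 3) to 5.70, 2.51 and 4.99 CPM (log2 fold change -4.87 ± 0.31 SE, adjusted p = 1.05e-07). Vldlr, a lipoprotein receptor, stood at 57.7, 43.3 and 42.7 CPM in the controls and had no read in the TXNIP libraries, at least 461-fold lower with 3 reads taken as the group's floor. Ddit4, an inhibitor of mTORC1, went from 40.9 ± 9.53 to 20.3 ± 1.87 CPM. Without control replicate 2 or 3, or TXNIP replicate 1, 2 genes of this list rose in place of 4, and without any 1 library other than control replicate 1 the falls numbered 5 or 6.

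Among 9 bZIP relatives and partners of ATF4, 5 rose, 2 fell and 2 did not pass. In shares, 55.6% rose and 22.2% fell, beside 30.6% and 33.9% of all tested genes. Cebpb and Cebpd, C/EBP factors of inflammation and differentiation, rose from 72.7 ± 6.01 to 201 ± 50.1 and from 38.4 ± 11.3 to 134 ± 15.9 CPM (SD, n = 3). Jdp2, a repressor of the AP-1 family, rose from 43.6 ± 0.549 to 161 ± 25.1 CPM (edgeR adjusted p = 2.06e-07). Atf3, which ATF4 induces, rose from 11.8 ± 3.07 to 31.3 ± 5.27 CPM. Cebpg, the partner of ATF4 in amino acid genes, fell from 93.3 ± 15.1 to 68.6 ± 5.50 CPM (edgeR adjusted p = 0.02). Batf, a leukocyte factor, was without reads in the controls and had 3.50 ± 0.537 CPM in the TXNIP libraries, at least 45.2-fold higher. Batf3 stood at 4.57 ± 1.10 CPM in the controls and was without reads in the TXNIP libraries, at least 47.3-fold lower. Without control replicate 2 or 3 or TXNIP replicate 2 or 3, 1 of these genes fell in place of 2, and the call lost was that of Cebpg.

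Of the 16 genes of the eIF2 step that sets ATF4 translation, 5 rose, 2 fell and 9 did not pass, with a median log2 fold change of 0.28. The share that rose, 31.25%, was near the 30.6% of all tested genes, and 12.5% fell beside 33.9%. Without control replicate 3 or TXNIP replicate 1 or 2, or with plain library sizes, 3 rose. The kinase genes differed from each other. Eif2ak2 (PKR, which senses double-stranded RNA and is induced by interferon) rose from 10.6 ± 3.34 to 85.7 ± 15.7 CPM (SD, n = 3; edgeR adjusted p = 1.98e-07). Eif2ak3 (PERK, the sensor of the endoplasmic reticulum) fell from 30.1 ± 4.89 to 16.1 ± 1.67 CPM (adjusted p = 0.00133). Eif2ak4 (GCN2, which senses uncharged tRNA) stood at 12.8 ± 0.480 and 17.7 ± 2.35 CPM and Eif2ak1 (HRI, which senses haem) at 101 ± 8.96 and 84.2 ± 8.48 CPM, and neither passed. Eif2s1, the phosphorylated subunit, rose from 148 ± 13.5 to 329 ± 19.0 CPM. The subunits of the eIF2 exchange factor were divided. Eif2b3 rose from 19.4 ± 1.51 to 61.7 ± 5.72 CPM. Eif2b5 fell (log2 fold change -0.54, edgeR adjusted p = 0.00652), and Eif2b1, Eif2b2 and Eif2b4 did not pass. Ppp1r15a (GADD34), the inducible phosphatase subunit and an ATF4 target, had 44.4 ± 5.28 and 42.9 ± 6.81 CPM (adjusted p = 0.816).

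Control replicate 1 had the lowest level of the controls for all 10 members, whereas it was the lowest control for 37.3% of the tested genes. Its level was 0.474 to 0.715 times the mean of the other 2 controls, with a median of 0.669 over the members and 1.0 over all tested genes. TXNIP replicate 1 was the lowest of its group for 6 members and the highest for 4, at 0.569 to 1.48 times its group-mates. Replicate 1 also stood apart from its group-mates in the counts of all genes, where chi-square divided by its degrees of freedom was 23.7 to 28.3, against 6.33 and 6.47 between replicates 2 and 3. The labels name no batch that would set replicate 1 apart. Leaving out control replicate 1 lowered the log2 fold change of all 10 members. Chac1, Asns, Phgdh, Shmt2 and Mthfd2 passed the test with any 1 library left out.

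**Figure D5:**
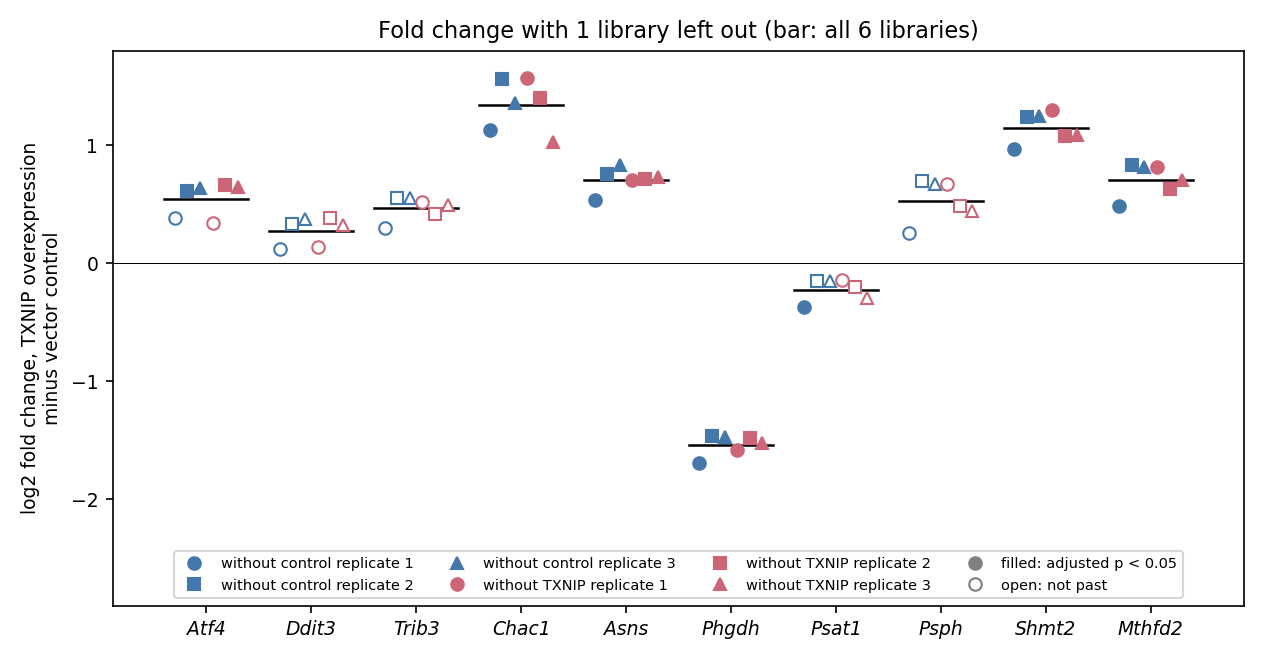
Log2 fold change of each member with all 6 libraries (bar) and with 1 library left out (points; filled where the edgeR adjusted p is below 0.05). The points for Phgdh lie between -1.69 and -1.46, while those for Atf4 include 2 open circles at 0.38 and 0.34.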

How the data were processed

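QuantSeq 3' libraries were made from Trizol-extracted RNA, per the labels' protocols. Bowtie2, bedtools and the build mm10 stand in the submitters' processing notes. The sources used here do not give versions, annotation, strand use or duplicate handling. Each library has 1 deposited file of unnormalised counts by gene symbol, and such 3' counts do not grow with transcript length. They were filtered with edgeR's filterByExpr (12088 genes left), given TMM factors and compared with edgeR 4.0.16 (R 4.3.3), two-sided, quasi-likelihood with robust dispersions, group as the only term, Benjamini-Hochberg adjustment over all tested genes and a threshold of 0.05. CPM are counts relative to the TMM-scaled library, at 0.964 to 1.04 times the value relative to the plain total. Log2 fold changes are TXNIP minus control, and their 95% intervals are not adjusted over genes. A fold against a group without reads used a floor of 3 reads over the group. The intervals come from the same fit as the p-values and so carry the spread between these libraries. The floor covers counting error only.

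The members and gene lists were chosen with earlier results of these data known. The text names all members, the tested paralogs, the 4 genes of each list with the smallest adjusted p, Txnip, examples of cell type markers and, for Atf4, Asns and Phgdh, the 2 genes nearest in pattern, except that some genes are not reported here. Slc1a4, Slc3a2, Slc7a5, Sars, Aars, Farsa, Farsb, Gars, Tars, Ddit4, Fgf21, Adm2, Atf3, Cebpg, Batf, Eif2ak1, Eif2ak4, Eif2b1, Eif2b2, Eif2b4, Eif2b5, Ppp1r15a, Sfxn1, Gldc, Amt, Gcsh and Herpud1 were added after their values were seen. Alternatives were RLE and upper-quartile factors, plain library size, other filters, DESeq2 1.42.0, limma-voom (limma 3.58.1), non-robust dispersions, a replicate block, a threshold of 0.01, each library left out, and removal of Rn45s. Leaving out replicate 1 of both groups, the gene-pair ratios, the hepatocyte sum without Afp and the TGNNGCAAT motif were added after seeing the data. Scripts were tested on simulated counts. Gene positions are RefSeq's for GRCm38.p6, the assembly behind mm10, and overlaps are from GENCODE M21. Plots used matplotlib 3.10.9.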

Additional observations from a re-analysis of the deposited data

How the results depend on the processing

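For the 10 members, 180 of 190 alternative log2 fold changes kept their direction and their side of the threshold. Members called were 5 higher and 1 lower under most settings, 6 higher with upper-quartile factors and 4 higher at a threshold of 0.01. Leaving out 1 library gave 4 to 5 higher and 1 to 2 lower. Without control replicate 1, 2 members were lower, and without replicate 1 in both groups 6 were higher and 2 lower. Ddit3 then had a log2 fold change of -0.023. Atf5 went from -0.03 to 0.17 without control replicate 2, 0.08 without control replicate 3, 0.17 without TXNIP replicate 2 and 0.12 without TXNIP replicate 3, and its values with 1 library left out ranged from -0.40 to 0.17, none past the threshold. Over all genes, leaving out 1 library gave 3383 to 3712 higher and 3801 to 4189 lower, over the pathway lists 44 to 49 higher and 23 to 29 lower, and over the markers 13 higher and 10 to 12 lower. The restriction to at least 5 CPM in both groups, which removes genes near 0 in 1 group by construction, gave 2545 genes lower and, of the cell type markers, 4 higher and 0 lower by edgeR. With a replicate block, 7 members were higher and 1 lower, since Trib3 (adjusted p = 0.0397) and Psph (0.00818) then passed. Replicate numbers share no stated source, same-numbered libraries had deviations correlated at 0.158, 0.0747 and 0.0889, and not every library correlated best with its own number. Depth limits the genes with few reads, such as Mthfd2l, Chac2 and Gldc.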

Other observations

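The other arms of the unfolded protein response, which share Ddit3 and Herpud1 with ATF4, were mostly higher in the TXNIP libraries. Of 9 genes of the ATF6 and XBP1 arms 6 rose, 1 fell and 2 did not pass, with a median log2 fold change of 1.35. As shares, 66.7% rose and 11.1% fell, beside 30.6% and 33.9% of all tested genes. Edem1, which removes misfolded glycoproteins, rose from 31.3 ± 6.52 to 153 ± 20.6 CPM (SD, n = 3; edgeR adjusted p = 2.05e-07). Hspa5, the chaperone BiP, rose from 933 ± 71.9 to 2609 ± 226 CPM. Sdf2l1 rose from 48.1 ± 11.5 to 231 ± 13.4 CPM and Xbp1, the factor gene of the IRE1 arm, from 49.6 ± 8.70 to 133 ± 3.53 CPM. Counts by gene symbol do not tell spliced from unspliced Xbp1 RNA. Herpud1 was the one that fell, from 138 ± 21.6 to 98.6 ± 1.53 CPM.

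Among other regulators reported to act on serine genes, the MYC family genes moved in opposite directions. Myc went from 19.8 to 34.0 CPM in the controls to 5.17 to 8.12 CPM (edgeR adjusted p = 3.11e-05) and Mycn from 4.99 ± 1.79 to 71.4 ± 2.72 CPM (SD, n = 3; adjusted p = 4.12e-08). Nfe2l2, the NRF2 gene, passed narrowly (adjusted p = 0.0462) and lost that call without any 1 library other than control replicate 1, and with plain library size (0.0922). Trp53 did not pass (adjusted p = 0.362). Of 11 cell cycle genes 2 rose (Mki67 and Mcm4), 2 fell (Mcm7 and Mcm2) and 7 did not pass. Each direction held 18.2%, beside 30.6% up and 33.9% down among all tested genes. Mki67 stood at 111, 104 and 96.0 CPM in the controls and at 471, 221 and 225 CPM in the TXNIP libraries, and Mcm7 went from 483 ± 27.3 to 226 ± 6.76 CPM. Mcm4 passed narrowly (edgeR adjusted p = 0.0495) and lost that call without any 1 library other than TXNIP replicate 1. Without control replicate 1 there were 1 higher and 5 lower, and without replicate 1 in both groups 6 lower.

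By the root mean square difference of centred log2 CPM over the 6 libraries, the genes most like Atf4 among 12087 others were Dhx37 (0.06) and Mars (0.07). Those most like Asns were Ldha (0.06) and Ier5 (0.06), and those most like Phgdh were Gtf3a (0.06) and Selt (0.07). The nearest member was Ddit3 for Atf4 (0.14, rank 57), Trib3 for Asns (0.14, rank 116) and Psat1 for Phgdh (0.67, rank 3258). Dhx37 had only 30 to 67 reads in a library and did not pass (edgeR adjusted p = 0.154).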
